A study of Mus musculus with 16 samples.

Results

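This account covers 6 enzymes that turn pregnenolone into cortisol, aldosterone and androgen precursors. They were read in tumours of H295R, a human adrenocortical carcinoma line known for making these steroids. The members were chosen by human RefSeq accession, namely HSD3B2 (NM_000198), HSD3B1 (NM_000862), CYP17A1 (NM_000102), CYP21A2 (NM_000500), CYP11B1 (NM_000497) and CYP11B2 (NM_000498). All 6 accessions were on the array, each with 1 probe and 1 spot per array, out of 34127 probes with 29094 identifiers. Of the 6, 5 passed the filter on dim probes, as did 20216 identifiers in all; CYP11B1 did not.

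The tumours grew in male SCID mice, a strain without working T or B lymphocytes that still supplies stroma, vessels and innate immune cells. Treatment by mouth lasted 28 days in all groups. The groups were mitotane, 9-cis retinoic acid (9-cisRA), both agents together (combined) and corn oil (control). Mitotane damages adrenal cortex cells and is the standard drug for this cancer. 9-cisRA, a vitamin A derivative, is a ligand of the RAR and RXR families of nuclear receptors. RNA levels were read on Cy3-labelled 1-colour Agilent arrays of human design, although the labels list the mouse as organism. Scanner output was used for 4 arrays each of mitotane, 9-cisRA and control and for 3 arrays of combined treatment. Combined replicate 3 was read only through the series value table. Replicates are numbered by slide, and each of the 4 slides carried 1 array of every group. The labels do not tie arrays to single mice, so the p-values below only reflect how far these samples spread, which may be technical. The array number limits the precision of every value below.

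Steroid synthesis in the adrenal cortex starts with the cleavage of cholesterol to pregnenolone. The 3-beta-hydroxysteroid dehydrogenases HSD3B2 and HSD3B1 convert pregnenolone and its derivatives to steroids of the progesterone type. CYP17A1 adds the 17-hydroxyl group and cleaves the side chain toward androgens. CYP21A2 adds the 21-hydroxyl group needed for both cortisol and aldosterone. CYP11B1 then completes cortisol, and CYP11B2 completes aldosterone. HSD3B2 is the adrenal and gonadal form in humans, while HSD3B1 is best known from placenta and peripheral tissues. CYP11B1 and CYP11B2 are close in sequence, as are HSD3B1 and HSD3B2, so a probe for one may take up RNA of the other.

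Levels are given as log2 of the processed signal minus the log2 of the 75th percentile of the same array. A value of 0 is thus a spot at that percentile. Levels are compared between groups for 1 probe and never between probes. In bulk tumour RNA, fewer tumour cells and less RNA per cell cannot be told apart. One library stood apart, control replicate 4. Its 75th percentile lay at an intensity of 224.2, against 551.5 to 1061 elsewhere, and its r with the rest across transcripts had a median of 0.874, against 0.977 to 0.990. Spots well above background made up 60.5% of combined replicate 4 and 63.6% of control replicate 4, while the rest had 71.5% to 77.4%. A hand-written list of 7 accessions for adrenocortical markers was on the array in full, and all 15 arrays measured 6 of them well above background. The files do not pair accessions with gene names, so listed accessions other than the 6 members are given as counts.

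No member passed the test in any of the 6 comparisons. In limma, 0 of 5 members had an adjusted p under 0.05 for mitotane, 9-cisRA or combined treatment against control, and the same count held for combined treatment against each single agent and for the interaction. The background was 0% of 20216 transcripts in all 6 comparisons. Array weights, an alternative limma fit that weighted control replicate 2 at 8.81 and control replicate 4 at 0.04, called up to 5788 transcripts in a comparison but 0 of the 5 members. HSD3B2 was the only tested member with an unadjusted p under 0.05, in 3 of the 6 comparisons, with a negative value in each. All 3 rest on the same combined arrays. Over the alternatives in limma, that unadjusted p ran from 0.0034 to 0.089 for combined against 9-cisRA. It ran from 0.0049 to 0.18 for combined against mitotane and from 0.0050 to 0.12 for the interaction. CYP21A2 and CYP17A1 had the narrowest intervals and CYP11B2 the widest.

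**Figure D1:**
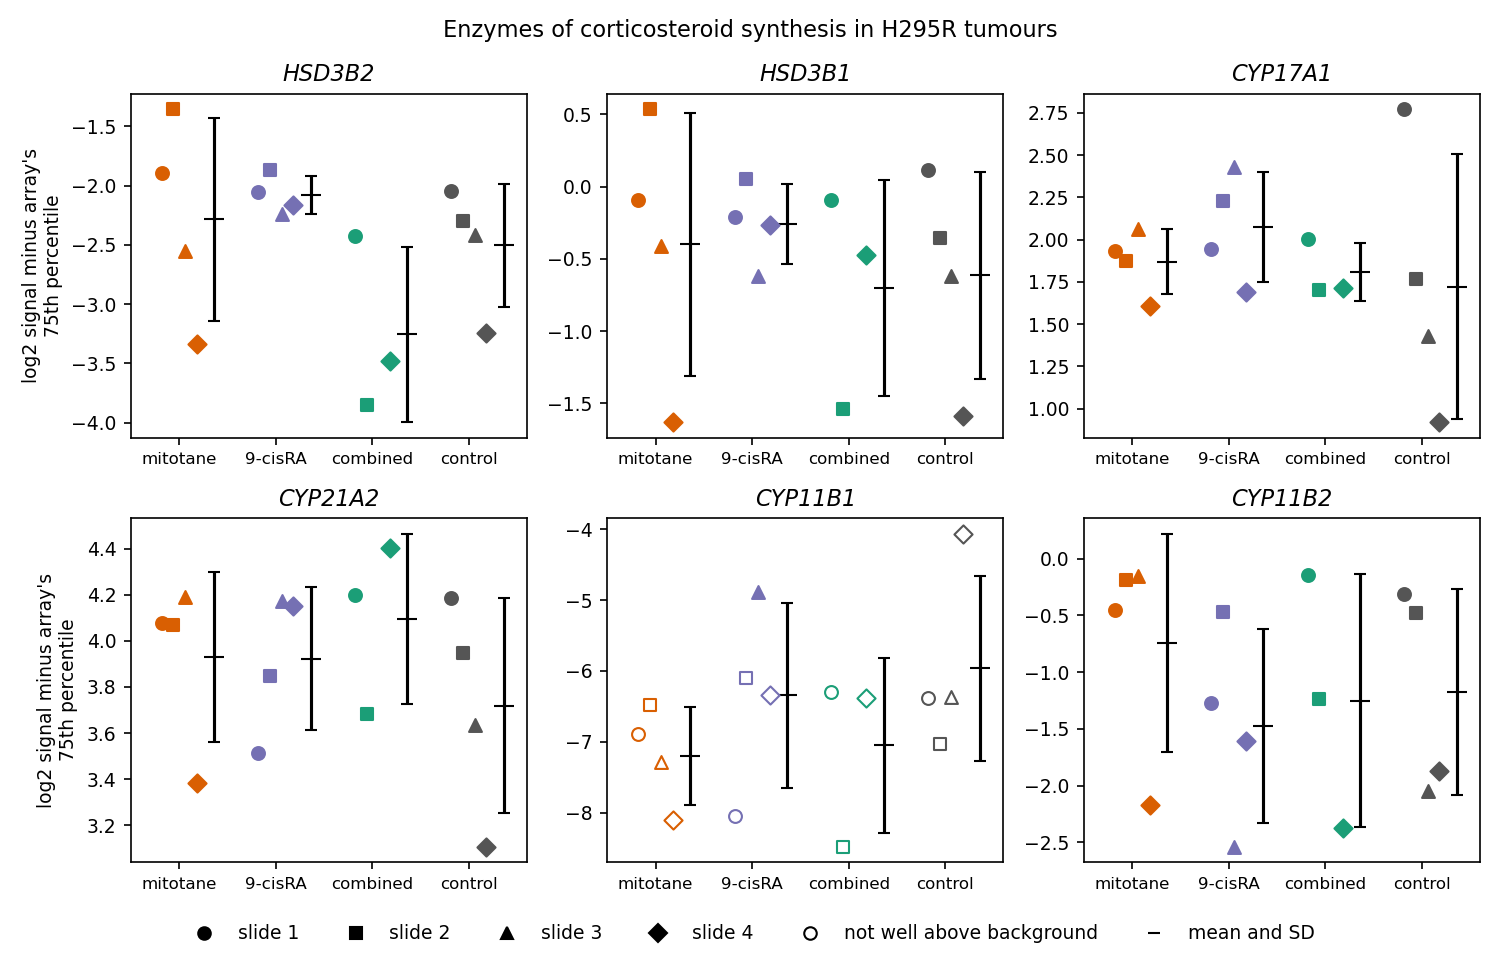
Level of the 6 enzymes on every array, as log2 signal minus the array's 75th percentile (vertical axis, own range in each panel), by treatment group (horizontal axis). Marker shape gives the slide, an open marker a spot not well above background, and the bars the group mean and SD (n = 3 for combined, n = 4 otherwise). All 3 combined arrays of HSD3B2 lie below all 4 arrays of 9-cisRA, and 14 of 15 CYP11B1 spots are open.

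HSD3B2 makes the first step after pregnenolone in the adrenal. Its level under mitotane was -1.89, -1.35, -2.55 and -3.34 in replicates 1 to 4. Under 9-cisRA it was -2.06, -1.87, -2.24 and -2.16. Under combined treatment it was -2.43, -3.85 and -3.48 in replicates 1, 2 and 4, and in control it was -2.05, -2.30, -2.42 and -3.25. The 9-cisRA arrays lay close together, and 2 of the 3 combined arrays lay below every array of the other groups. Combined and 9-cisRA arrays did not overlap, whereas combined and control arrays did, through control replicate 4. The spots were dim but well above background on all 15 arrays, with processed signals of 58.8 to 136.6 under combined treatment and 23.6 to 253.9 in control.

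HSD3B2 averaged -3.25 ± 0.74 (SD, n = 3) under combined treatment and -2.08 ± 0.16 (n = 4) under 9-cisRA. The log2 change was -1.17 ± 0.43 (SE), with a 95% interval of -2.09 to -0.25 (adjusted p = 0.399, limma). Combined was therefore 2.25-fold lower in these arrays, a difference that failed the correction over all transcripts. The exact two-sided permutation test over the arrays gave p = 0.0286, the smallest that 3 arrays against 4 allow, with no adjustment. Of all tested transcripts, 4.71% were likewise lower in combined than in 9-cisRA without overlap, and 2.04% were lower with an unadjusted p under 0.05. HSD3B2 was lower under combined treatment on 3 of 3 slides, by log2 differences of -0.37, -1.99 and -1.32 on slides 1, 2 and 4. With normexp background correction and quantile normalisation, the change was -0.54.

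Against mitotane, whose HSD3B2 mean was -2.28 ± 0.86 (SD, n = 4), combined treatment had a log2 change of -0.97 ± 0.43 (SE; adjusted p = 1.00, limma). The exact two-sided permutation test over 3 against 4 arrays gave p = 0.171, the groups overlapped, and the change was -0.46 with normexp. It was lower on 3 of 3 slides, although the difference on slide 4 was only -0.15. Without an adjustment, 1.8% of all transcripts had p under 0.05 and were lower in that comparison. Against control, whose mean was -2.504 ± 0.52 (SD, n = 4), the change was -0.75 ± 0.43 (SE), with an interval of -1.67 to 0.17 (adjusted p = 0.453, limma; exact permutation p = 0.171). Combined was again lower on 3 of 3 slides, with differences of -0.38, -1.55 and -0.24. That change was -0.45 without combined replicate 2, -0.27 with normexp and -0.999 without control replicate 4, which itself lay 0.99 below the mean of the other controls.

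HSD3B2 averaged somewhat above control under each single agent, with intervals across 0. The log2 change was 0.22 ± 0.40 (SE) for mitotane and 0.42 ± 0.40 for 9-cisRA (adjusted p = 0.841 and adjusted p = 0.744, limma). Without control replicate 4 the values were -0.029 for mitotane and 0.17 for 9-cisRA. From high to low the means ran 9-cisRA, mitotane, control and combined. Neither mitotane nor combined differed from control past the adjusted threshold, and 9-cisRA was not tested against mitotane. Mitotane was higher than control on 2 of 4 slides and 9-cisRA on 3 of 4. The sum of both single changes was 0.64, against a combined change of -0.75. The interaction, which is combined minus mitotane minus 9-cisRA plus control, was -1.39 ± 0.59 (SE), with an interval of -2.65 to -0.14 (adjusted p = 0.965, limma). It was -0.73 with normexp and -0.86 with array weights. Among all transcripts, 2.33% had a negative interaction with an unadjusted p under 0.05. The 4 comparisons with control share the same control arrays, so they are not separate evidence. All comparisons that include combined treatment, the interaction among them, likewise share its arrays and are not separate evidence either.

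In the authors' value table, combined replicate 3 could be set beside the others. The level each probe is set against is not stated there. The middle HSD3B2 values, 0.056 and -0.056 in control replicates 2 and 3, are equal and opposite, so they centre on the probe's median over 16 arrays. HSD3B2 there read -0.10, -1.52, -0.29 and -1.15 in combined replicates 1 to 4. It read 0.32, 0.51, 0.12 and 0.19 under 9-cisRA and 0.32, 0.06, -0.06 and -0.98 in control. All 4 combined arrays lay below all 4 of 9-cisRA in that table, and combined and control arrays overlapped. The share of all transcripts that did the same there was not computed. Only combined replicate 3 adds to the arrays read above, so this is not separate evidence. The fitted change of combined against 9-cisRA over 16 arrays was -1.05 ± 0.40 (SE; adjusted p = 0.395, limma).

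HSD3B1 performs the same reaction as HSD3B2. Its level was -0.09, 0.54, -0.41 and -1.63 under mitotane and -0.21, 0.05, -0.62 and -0.27 under 9-cisRA. It was -0.10, -1.54 and -0.47 under combined treatment, in the replicate order given for HSD3B2, and 0.11, -0.36, -0.62 and -1.59 in control. All groups overlapped, and mitotane replicate 4, combined replicate 2 and control replicate 4, at -1.63 to -1.54, lay below the rest, which began at -0.62. The means were -0.40 ± 0.91 (SD, n = 4) for mitotane, -0.26 ± 0.28 (n = 4) for 9-cisRA, -0.70 ± 0.75 (n = 3) for combined and -0.61 ± 0.72 (n = 4) for control. Neighbours in the order 9-cisRA, mitotane, control and combined did not differ beyond their spread. The change of combined against control was -0.09 ± 0.48 (SE; adjusted p = 0.935, limma), and its interval of -1.13 to 0.95 runs from 0.458 to 1.93 times control in linear terms. Combined was lower than control on 2 of 3 slides. The changes of mitotane and 9-cisRA against control were 0.21 ± 0.45 and 0.35 ± 0.45 (adjusted p = 0.862 and adjusted p = 0.761, limma). They were -0.11 and 0.028 without control replicate 4, where combined against control was -0.41.

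Levels of the 3-beta-hydroxysteroid dehydrogenases varied together from array to array. They correlated with Pearson r = 0.863 over 15 arrays and r = 0.857 over 14 without control replicate 4. Within groups, after removing each group's mean, r was 0.943. Arrays share slide and scaling, the probes may share target RNA, and r is a description only. The distance between both probes on the same array does not depend on the scaling of an array. HSD3B2 minus HSD3B1 was -2.33, -2.31 and -3.01 under combined treatment. It was -1.80, -1.89, -2.14 and -1.71 under mitotane, -1.85, -1.92, -1.62 and -1.89 under 9-cisRA, and -2.16, -1.94, -1.80 and -1.66 in control. The zero of this difference has no meaning, but all 3 combined arrays lay below every array of the other groups. In the value table the 4 combined arrays ran from -1.04 to -0.26, including combined replicate 3, and the lowest of the others was -0.19. With normexp the combined arrays, at -1.82 to -1.15, overlapped every other group. Mitotane ran from -1.55 to -0.94, 9-cisRA from -1.39 to -1.20 and control from -1.57 to -1.14. This difference was picked after its values were seen, so it was not tested.

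**Figure D2:**
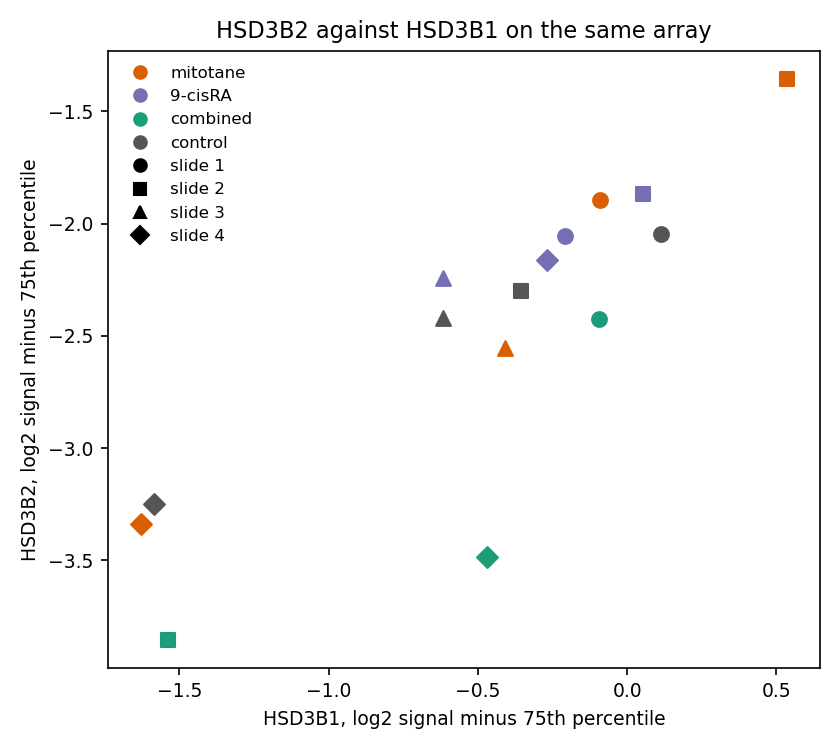
HSD3B2 (vertical axis) against HSD3B1 (horizontal axis) on the same array, both as log2 signal minus the array's 75th percentile; colour gives the group and shape the slide. Both levels rise together (r = 0.863 over 15 arrays, combined arrays included). On the 3 combined arrays HSD3B2 minus HSD3B1 is lower than on every other array. That was picked after the values were seen, and with normexp the groups overlap.

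CYP17A1 directs steroids toward cortisol and androgens. Its level was 1.93, 1.87, 2.07 and 1.61 under mitotane and 1.94, 2.23, 2.43 and 1.69 under 9-cisRA. It was 2.01, 1.70 and 1.71 under combined treatment, against 2.77, 1.77, 1.43 and 0.92 in control. The combined arrays spanned a 1.23-fold range, whereas the control arrays spanned 3.61-fold and held both the highest and the lowest value of the series. Every treated group lay inside the control range. The mean was 2.07 ± 0.32 (SD, n = 4) for 9-cisRA, 1.87 ± 0.19 (n = 4) for mitotane, 1.81 ± 0.17 (n = 3) for combined and 1.72 ± 0.78 (n = 4) for control, and no neighbours differed beyond their spread. Log2 changes against control were 0.15 ± 0.30 (SE) for mitotane, 0.35 ± 0.30 for 9-cisRA and 0.08 ± 0.33 for combined. Their adjusted p-values in limma were 0.860, 0.744 and 0.908. Each single agent was higher than control on 3 of 4 slides and combined on 1 of 3. Control replicate 4 lay 1.07 below the mean of the other controls, and without it the control mean was 1.99 ± 0.70 (n = 3), above mitotane and combined. The change against control was then -0.12 for mitotane, 0.084 for 9-cisRA and -0.18 for combined.

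CYP21A2 adds the 21-hydroxyl group. Its level was 4.08, 4.07, 4.19 and 3.38 under mitotane and 3.51, 3.85, 4.18 and 4.15 under 9-cisRA. It was 4.20, 3.68 and 4.40 under combined treatment, against 4.19, 3.95, 3.63 and 3.11 in control. Groups overlapped throughout, and the low ends were mitotane replicate 4 and control replicate 4, both of slide 4. The means were 4.10 ± 0.37 (SD, n = 3) for combined, 3.93 ± 0.37 (n = 4) for mitotane, 3.92 ± 0.31 (n = 4) for 9-cisRA and 3.72 ± 0.47 (n = 4) for control. The first 3 of these lay within their spread of each other and of control. Combined against control gave 0.38 ± 0.28 (SE), with an interval of -0.22 to 0.98 (adjusted p = 0.557, limma). In linear terms that interval runs from 0.856 to 1.97 times control. The log2 change against control was 0.21 ± 0.26 for mitotane and 0.20 ± 0.26 for 9-cisRA, and neither passed (adjusted p = 0.773 and adjusted p = 0.761, limma). Without control replicate 4 the change was 0.0084 for mitotane, -0.0003 for 9-cisRA and 0.17 for combined. Combined against control was 0.094 with array weights. It was 0.020 without weights when control replicate 4 and combined replicate 4 were both left out. By slide, mitotane was higher than control on 3 of 4, 9-cisRA on 2 of 4 and combined on 2 of 3. CYP21A2 has a near-identical pseudogene, CYP21A1P, whose RNA the probe may also take up, and this was not tested.

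CYP11B1 carries out the last step to cortisol. Its spot was not well above background on any mitotane, combined or control array and was so on 1 of 4 arrays of 9-cisRA, replicate 3. The processed signals were 8.94, 8.56, 5.42 and 2.20 under mitotane and 2.08, 10.7, 27.3 and 10.5 under 9-cisRA. They were 9.37, 2.65 and 7.89 under combined treatment and 12.5, 6.67, 8.38 and 13.4 in control. Values below the detection limit have no order. A fold for 9-cisRA would have to use a bound for control, which takes on each array the higher of the probe's own level and the lowest level measured well above background. None is given, since the 9-cisRA mean of -6.34 lay below that control bound of -5.73. The transcript was therefore not tested, and a change among levels below this limit could not have been seen.

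CYP11B2 carries out the last steps to aldosterone. Its spot was well above background on all 15 arrays, with signals of 61.3 to 845.2 in control. Whether the CYP11B2 probe takes up CYP11B1 RNA was not tested. The CYP11B2 level was -0.45, -0.19, -0.15 and -2.18 under mitotane and -1.27, -0.47, -2.54 and -1.60 under 9-cisRA. It was -0.15, -1.24 and -2.37 under combined treatment, against -0.31, -0.48, -2.05 and -1.87 in control. A range of 1.74 to 2.22 log2 units recurred inside every group. The means were -0.74 ± 0.96 (SD, n = 4) for mitotane, -1.47 ± 0.85 (n = 4) for 9-cisRA, -1.25 ± 1.11 (n = 3) for combined and -1.18 ± 0.91 (n = 4) for control. Neighbours in the order mitotane, control, combined and 9-cisRA did not differ beyond their spread.

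Against control, CYP11B2 had a log2 change of 0.43 ± 0.60 (SE) for mitotane, -0.30 ± 0.60 for 9-cisRA and -0.07 ± 0.65 for combined. Their adjusted p-values in limma were 0.795, 0.844 and 0.962. The interval for mitotane ran from 0.551 to 3.30 times control in linear terms, which covers both directions. The change for mitotane was as high as 1.90 on slide 3 and between -0.30 and 0.28 on the other slides, and over single arrays left out it ran from 0.14 (without control replicate 3) to 0.91 (without mitotane replicate 4). Without control replicate 4 the changes were 0.20 for mitotane, -0.53 for 9-cisRA and -0.31 for combined.

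**Figure D3:**
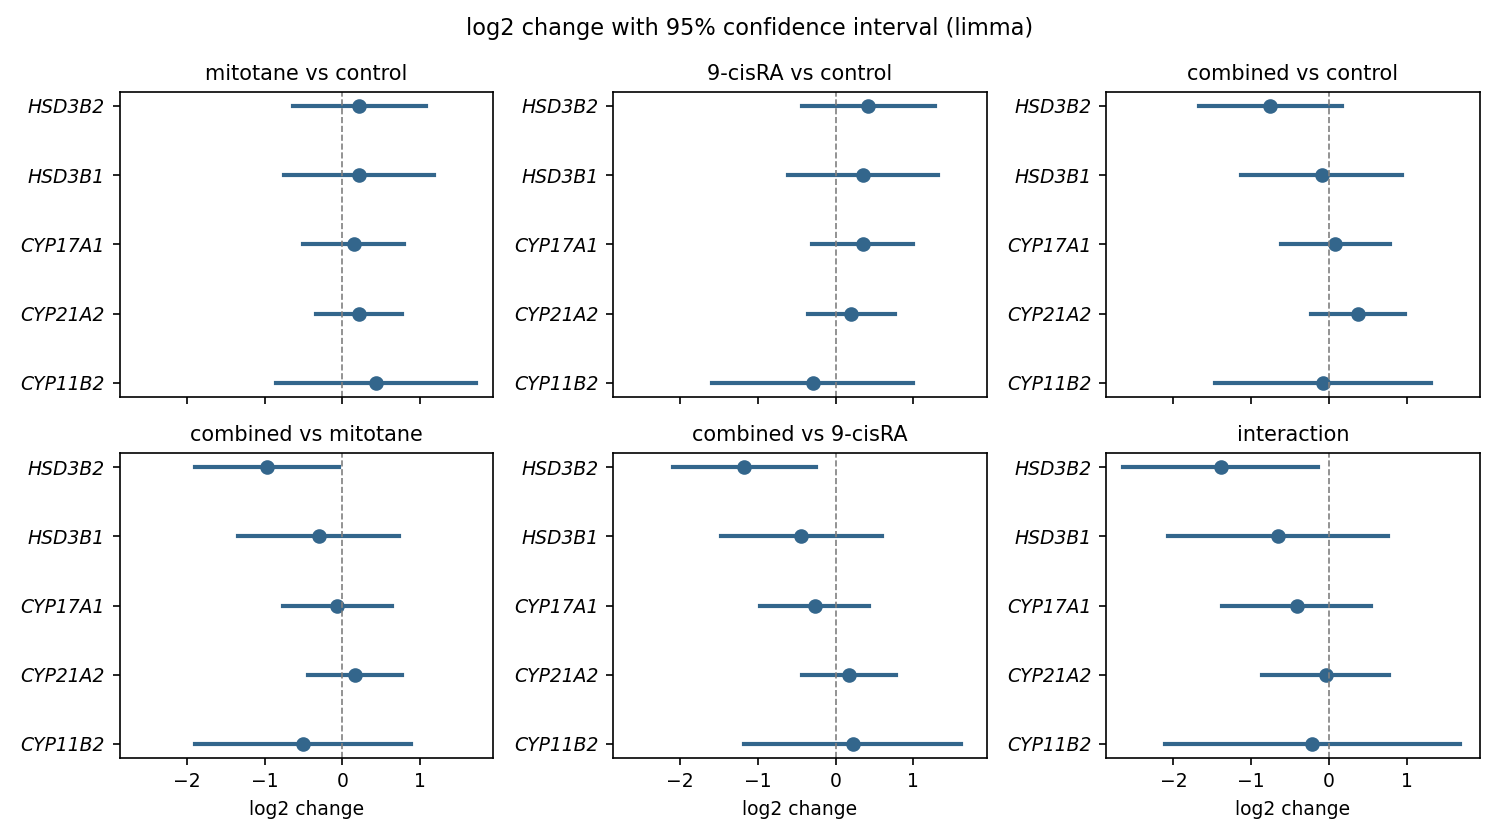
Log2 change (horizontal axis) of the 5 tested enzymes in 6 comparisons, with the point at the estimate of limma and the bar over its 95% interval. The bars of HSD3B2 leave out 0 for combined against mitotane, combined against 9-cisRA and the interaction, with no adjustment for the number of transcripts, and all other bars cross 0.

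The spread between arrays of one group was wide for these enzymes. The SD within groups was 0.95 for CYP11B2, 0.70 for HSD3B1, 0.62 for HSD3B2, 0.46 for CYP17A1 and 0.38 for CYP21A2, against a median of 0.31 over 20216 transcripts. That put CYP11B2 at percentile 96.4 and CYP21A2 at percentile 64.6 of all tested transcripts. Without control replicate 4 the SD of CYP11B2 was 0.96, at percentile 99.3.

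Part of the spread of CYP11B2 followed the slide. Over all tested transcripts, the estimated correlation of arrays within a slide was -0.02. For CYP11B2, all 8 arrays of slides 1 and 2 lay above their group's mean, by 0.01 to 1.11. On slides 3 and 4, mitotane replicate 3 lay 0.59 above it and the others lay 0.13 to 1.43 below. The mean deviation was 0.62 on slide 1, 0.57 on slide 2, -0.45 on slide 3 and -0.84 on slide 4. On slides 1 and 4 it was 0.43 and -0.53 for HSD3B2, 0.42 and -0.50 for HSD3B1 and 0.29 and -0.39 for CYP17A1. For CYP21A2 it stayed between -0.16 and 0.14 on all slides. With slide as a block the SE of CYP11B2 for mitotane against control was 0.42 in place of 0.60. Slide is all that the labels give, so an effect of hybridisation and one of the tumours placed on a slide cannot be told apart.

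Single arrays also moved several enzymes at once. In mitotane replicate 4 and control replicate 4, both of slide 4, 5 of 5 enzymes lay below their group's mean, by 0.26 to 1.43 and by 0.61 to 0.97. In mitotane replicates 1 and 2, combined replicate 1 and control replicates 1 and 2, 5 of 5 lay above it. Deviations from a group's mean cancel out within the group, so a very low array by itself puts others above that mean. In 9-cisRA, no array had all 5 enzymes on one side. Relative to the other controls, the shift of control replicate 4 ran from -1.30 for HSD3B1 to -0.82 for CYP21A2 over the 5 enzymes. Over all transcripts its median was -0.32, and the 5th to 95th percentile ran from -1.19 to 2.80. That put HSD3B1 at percentile 3.4 and CYP21A2 at percentile 21.5 of all tested transcripts.

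**Figure D4:**
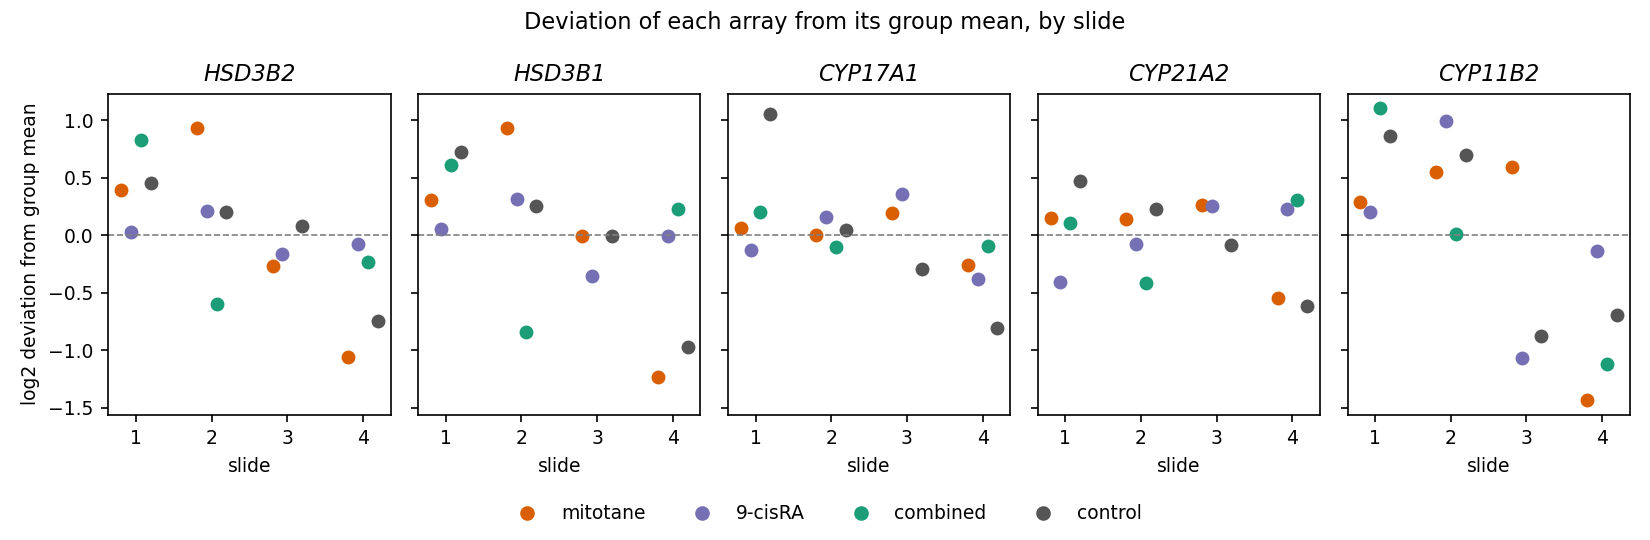
Log2 deviation of each array from its group mean (vertical axis) by slide (horizontal axis) for the 5 tested enzymes, with colour for the group. CYP11B2 lies at or above 0 on slides 1 and 2, and mostly below 0 on slides 3 and 4.

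Among other pairs of enzymes the correlation within groups was lower than that of HSD3B2 with HSD3B1. It ran from 0.357 for CYP21A2 with CYP11B2 to 0.739 for HSD3B1 with CYP21A2, over 15 arrays, and from 0.268 to 0.677 over 14 without control replicate 4. The transcripts whose pattern was most like a member were ranked by the smaller of r over 15 arrays and r over 14, among 15743 candidates. For HSD3B2 the closest was HSD3B1, and for HSD3B1 it was THC2701921 (r = 0.971). For CYP17A1 it was NM_030821 (r = 0.886), for CYP21A2 NM_001360 (r = 0.925) and for CYP11B2 the probe A_33_P3250273 (r = 0.865), all over 15 arrays.

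The 5 members as a group had a median log2 change of 0.21 for mitotane, 0.35 for 9-cisRA and -0.07 for combined treatment against control. The median over all 20216 transcripts was 0.09, 0.03 and 0.09. Of the 5, 5 were above 0 for mitotane, 4 for 9-cisRA and 2 for combined. Without control replicate 4 the medians of the members were -0.03, 0.03 and -0.31, those over all transcripts were 0.08, 0.02 and 0.08, and 2, 3 and 1 of the 5 were above 0. In all transcripts, unadjusted p under 0.05 was reached by 6.04% for mitotane, 3.51% for 9-cisRA and 13.8% for combined against control, and by 0 of 5 members in each. It was reached by 4.75% for combined against mitotane, 9.47% for combined against 9-cisRA and 3.71% for the interaction, and there by HSD3B2 alone of the 5.

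A hand-written list of 24 other genes of steroid synthesis covered cholesterol entry and cleavage, electron donors, androgen and sulfation enzymes, cortisone interconversion and regulators. Of these, 22 had an accession on the array and 21 passed the filter on dim probes. In limma, 0 of 21 passed in any of the 6 comparisons. Their median log2 change was 0.21 for mitotane, 0.22 for 9-cisRA and 0.09 for combined against control, and the interaction had a median of -0.27 over the list and 0.001 over all transcripts. The list medians against control were 0.03, -0.03 and -0.21 without control replicate 4. Unadjusted p under 0.05 was reached by 0 of 21 for mitotane, by 2 higher and 2 lower for 9-cisRA, and by 3 higher and 1 lower for combined. The 2 tested genes of cholesterol entry and cleavage had medians of 0.32, 0.22 and 0.13 for mitotane, 9-cisRA and combined against control, and the 5 electron donors and cofactor suppliers had 0.24, 0.24 and 0.13. The 5 tested androgen, estrogen and sulfation enzymes had 0.21, 0.19 and 0.09. The 8 regulators, the ACTH receptor among them, had -0.02, 0.17 and -0.05. All of these group medians were lower without control replicate 4, and those for combined against control were then below 0 in these 4 groups. Cortisone interconversion, with 1 tested gene, went the other way. Its changes against control were 0.13 for mitotane, 0.43 for 9-cisRA and 0.52 for combined. Without control replicate 4 its change for combined was 0.41.

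Lists for other cell types were read the same way, on probes of human design. The summed level of the 7 adrenocortical accessions was 6.72 to 7.32 under mitotane, 6.88 to 7.28 under 9-cisRA, 6.87 to 7.46 under combined treatment and 6.28 to 7.26 in control, on the log2 scale. The sum of 4 fibroblast accessions, 3 of them well above background on every array, was 3.33 to 6.402 under mitotane, 5.30 to 6.995 under 9-cisRA, 5.71 to 5.97 under combined and 4.71 to 4.90 in control. Each sum was formed in linear terms, so its brightest accession can dominate it. The part of the fibroblast sum in the values of HSD3B2 was not tested. The 3 endothelial accessions held 1 that no array measured well above background, and summed to -2.78 to -2.27 under mitotane, -2.71 to -1.98 under 9-cisRA, -2.66 to -2.44 under combined and -2.68 to -0.99 in control. The 2 red blood cell accessions likewise held 1 that no array measured, and summed to 4.18 to 7.28 under mitotane, 4.12 to 5.90 under 9-cisRA, 4.46 to 7.72 under combined and 6.33 to 7.32 in control. Of the 3 macrophage and leukocyte accessions, 1 was well above background on 15 arrays, and the others on only 5 and 3. Their sum was -3.66 to -2.99 under mitotane and -3.86 to -2.72 under 9-cisRA. It was -3.75 to -3.37 under combined and -3.94 to 5.16 in control. This range does not tell how many control arrays lay near 5.16. The part of these cell types in the values of the 6 enzymes was not tested.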

How the data were processed

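Each scanner file gives 1 intensity per spot, which the authors deposited as exported by Agilent Feature Extraction (11.0.1 in the submitters' processing notes, 11.0.1.1 per the file headers). Its processed intensity has background subtracted and a spatial trend removed, per the file headers, without scaling across arrays. Log2 values deposited by the authors make up the value table, by steps not given in the sources used here. Compared with scanner values, its columns had r = 0.998 or above over 20216 transcripts. Combined replicate 3 had no scanner output and could not be compared. Column medians were -0.43 for control replicate 4 and -0.03 to 0.06 for the others. Direction in the value table is that of the scanner values where both exist. For the 6 members its values centre on each probe's median over the 16 arrays, while the authors' percentile stays unknown.

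Here each processed signal was log2-transformed, and the 75th percentile of the array's 43118 non-control spots was subtracted. Outlier spots were dropped, replicate spots averaged, and an identifier with several probes took the one of highest mean. Testing needed at least 1 group whose arrays all had every spot of the probe well above background. All groups entered one fit in limma 3.58.1 (R 4.3.3, data.table package version 1.17.8), with two-sided p-values adjusted by Benjamini-Hochberg within a comparison and held to 0.05. The fit was tested on simulated data. Plots used matplotlib 3.10.9.

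The 6 members and all lists were chosen with earlier results of these data known. The text names the 6 members and, for each tested one, a transcript nearest in pattern, out of the 2 that the rule takes. The gene table available was for mouse, and 0 identifiers matched it. Slide numbers pair the arrays, since the labels place equal numbers on one slide. Deviations from group means correlated with a median of 0.01 over 21 same-slide pairs (-0.27 to 0.37) and of -0.02 over pairs on different slides. Files hold no mean spot signal, so normexp (offset 50) used the median signal. Alternatives were other background, scaling, filter and slide settings, array weights, the value table and leaving out arrays.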

Additional observations from a re-analysis of the deposited data

Results flagged for a closer look

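Gaps between the outermost array and its neighbours were read with Dixon's criterion in 18 sets of 4 arrays. Chance marks about 1 set in 20. This marked mitotane replicate 4 in CYP21A2, at 3.38 against 4.07 to 4.19 in the other mitotane arrays. It also marked mitotane replicate 4 in CYP11B2, at -2.18 against -0.45 to -0.15. HSD3B2 (-3.34) and HSD3B1 (-1.63) were lowest in that array too among mitotane arrays, short of the limit. Combined treatment, with 3 arrays, was not covered.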

How the results depend on the processing

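No member had an adjusted p under 0.05 in limma under any of the alternatives run. Of 855 recomputed member values, 795 kept direction and side of the threshold and 59 turned direction, in 17 of 30 results. For the permutation test that threshold was an unadjusted 0.05. Means within slides had no p and were compared by direction and by distance from the reported value. HSD3B2 kept its direction in 5 of 6 comparisons, with combined against 9-cisRA between -1.59 and -0.54 and combined against control between -1.17 and -0.27, and an interaction between -1.81 and -0.73. The exact permutation test put combined against 9-cisRA for HSD3B2 (-1.17) past an unadjusted 0.05. Over all transcripts, array weights called 3 for mitotane, 4 for 9-cisRA and 5788 for combined against control, 103 for combined against mitotane and 2003 for combined against 9-cisRA, where the reported fit called 0. Called transcripts for combined against mitotane were 1 in the value table without control replicate 4 and 0 to 1 when leaving out each array in turn. Leaving out control replicate 4 and combined replicate 4 together, chosen after seeing the data, called 2 for combined against 9-cisRA.

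With array weights, mitotane against control was -0.0081 for CYP21A2, -0.064 for HSD3B1 and -0.14 for CYP11B2, combined against mitotane was 0.018 for CYP17A1 and 0.12 for CYP11B2, and the interaction was 0.050 for CYP21A2 and 1.02 for CYP11B2. In the value table without control replicate 4, mitotane against control was -0.012 for CYP21A2, -0.049 for HSD3B2, -0.13 for HSD3B1 and -0.14 for CYP17A1, combined against control was -0.16 for CYP17A1, and the interaction was 0.18 for CYP21A2. With both replicates 4 left out, mitotane against control was -0.029 for HSD3B2, -0.11 for HSD3B1 and -0.12 for CYP17A1, and 9-cisRA against control was -0.00029 for CYP21A2. There, combined against control was -0.14 for CYP17A1 and 0.25 for CYP11B2, combined against mitotane was 0.053 for CYP11B2, and the interaction was 0.012 for CYP21A2 and 0.58 for CYP11B2. Averaged within slides, combined against control was -0.013 and combined against mitotane 0.0030 for CYP17A1, and combined against 9-cisRA was -0.13 for CYP11B2. With slide as a replicate block the interaction was 0.0089 for CYP21A2, and no other member changed direction or passed.

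Leaving out single arrays gave for mitotane against control -0.090 to 0.57 for HSD3B2, -0.11 to 0.62 for HSD3B1 and -0.12 to 0.50 for CYP17A1, with negative values without control replicate 4 in all 3 and without mitotane replicate 2 in both HSD3B genes. 9-cisRA against control was -0.00029 to 0.36 for CYP21A2 (negative without control replicate 4) and -0.63 to 0.060 for CYP11B2 (positive without 9-cisRA replicate 3). Combined against control was -0.41 to 0.33 for HSD3B1, positive without combined replicate 2 or control replicate 1. It was -0.18 to 0.43 for CYP17A1, negative without combined replicate 1, control replicate 3 or control replicate 4. It was -0.63 to 0.49 for CYP11B2, positive without combined replicate 4, control replicate 1 or control replicate 2. Combined against mitotane was -0.71 to 0.12 for HSD3B1 (positive without combined replicate 2 or mitotane replicate 2), -0.16 to 0.0030 for CYP17A1 (mitotane replicate 3), -0.018 to 0.37 for CYP21A2 (negative without mitotane replicate 4) and -1.06 to 0.053 for CYP11B2 (combined replicate 4). Combined against 9-cisRA was -0.33 to 0.78 for CYP11B2, negative without combined replicate 1 or 9-cisRA replicate 3. The interaction was -0.22 to 0.17 for CYP21A2, where 7 single arrays turned it, and -0.76 to 0.35 for CYP11B2, where 4 did. The causes were not tested. Each member has 1 probe, so probes could not be compared, and CYP11B1 is limited by its signal over background.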
